A study of Homo sapiens with 8 samples.

Results

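Extracellular matrix genes were examined in OVCAR-3, an established human ovarian carcinoma cell line, after siRNA against HBO1. The 36 genes were chosen by name, as collagens, laminins, matrix glycoproteins, lysyl oxidases, matrix metalloproteinases and their inhibitors, out of 20043 gene symbols that the probe annotation lists. Of the 36, 34 had at least 1 probe on the array, 54 probes in all, and COL17A1 and LAMA3 had none listed. Both groups were OVCAR-3 cells, with no other genetic change stated in the labels. One was transfected with scramble siRNA (siCTRL, 4 arrays) and the other with siRNA against HBO1 (siHBO1, 4 arrays), and total RNA was taken 48 h later. HBO1 is the older protein name of the acetyltransferase that KAT7 encodes. The labels give 1 cell line and no siRNA sequence. Whether each replicate was a culture of its own is not stated, and p-values then reflect only the spread between these arrays, which may be technical.

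Epithelial cells rest on a basement membrane, a thin sheet in which laminin trimers and a network of type IV collagen are joined by nidogens and heparan sulphate proteoglycans such as perlecan and agrin. Connective tissue beneath it is built from fibrils of collagens I, III and V, which lysyl oxidases crosslink, and from fibronectin. Metalloproteinases cut these proteins, and tissue inhibitors of metalloproteinases (TIMPs) block the enzymes. Much of the stromal matrix of an ovarian tumour is known to come from fibroblasts, which a cell line grown alone does not have.

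The arrays held 20504 to 22111 detected probes, where a probe is called detected on an array at a deposited detection p under 0.05, and their median intensities ran from 224 to 324. Of 12 markers of ovarian carcinoma and epithelium, 11 were detected on all 8 arrays, among them EPCAM, PAX8 and MUC16. Of 12 fibroblast markers, ACTA2, VIM, S100A4 and PDPN were detected on all 8 arrays, while PDGFRA, PDGFRB, THY1, LUM, FAP and COL6A3 were detected on none, DCN on at most 2 and POSTN on 1. The summed intensity of the fibroblast list was 18065 to 30910 in siCTRL and 17108 to 28481 in siHBO1. That sum includes undetected probes, and the brightest S100A4 probe alone stood at 5766 to 12606 over the 8 arrays. For the carcinoma and epithelium list the sum was 109368 to 146445 in siCTRL and 117945 to 150421 in siHBO1. Of 5 endothelium markers VWF was detected on all 8 arrays, KDR on 1 and PECAM1, CDH5 and TEK on none. Of 4 blood cell markers with a probe, CD14 and CD68 were detected on all 8 arrays and PTPRC and CD3E on none. The targeted gene KAT7 had normalized log2 intensities of 7.67, 7.97, 7.93 and 7.35 on siCTRL arrays 1 to 4, and 6.66, 6.86, 7.04 and 7.43 on siHBO1 arrays 1 to 4. The array labelled siHBO1 replicate 4 thus lay within the siCTRL range, and the difference of -0.73 (SE 0.19, n = 4 each) missed the threshold (adjusted p = 0.586 by limma). On the first principal component both replicate 1 arrays stood apart from the other 6. Single arrays therefore weigh on small differences, and leaving out 1 array or 1 pair turned the sign of some members, as given with each group of genes.

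OVCAR-3 cells had transcripts of the common type IV collagen and of 4 laminin chains among the 36 genes on every array. The fibril collagen genes COL1A1 and COL5A2 were detected on every array as well, and so was COL12A1, a collagen of fibril surfaces. Mean deposited intensities in siCTRL were 21885 for LAMA5, 15792 for LAMC1, 3773 for LAMB1 and 1207 for LAMB3. They were 6472 for COL4A1, 526 for COL4A2, 1948 for COL5A2, 1042 for COL12A1 and 446 for COL1A1. COL1A1 and COL4A2 were thus the dimmest of these, and different probes compare only roughly in intensity. Collagen III, fibronectin and MMP2 were at or near the level of the background. By their probes, 23 of the 34 measured genes were detected on all 8 arrays, 4 (COL1A2, COL5A1, COL6A2 and SPARC) on some, and 7 had no probe detected on 4 or more arrays and were not tested. Those 7 were fibronectin (FN1), collagen III (COL3A1), perlecan (HSPG2), the lysyl oxidases LOXL2 and LOXL3, the gelatinase MMP2 and the membrane-bound collagenase MMP14. FN1 was read by 3 probes, of which 1 was detected on 1 array, siHBO1 replicate 4, at an intensity of 364. COL3A1 stood at 198 to 260, MMP2 at 196 to 270 and MMP14 at 168 to 282 on the 8 arrays, where the lowest intensity of any detected probe was 234 to 358 depending on the array. A probe below that level gives only a bound, so no difference between the groups is given for these 7 genes, and an undetected probe does not show that the transcript is absent. In a bulk culture, fewer cells that make a transcript and less of it per cell cannot be told apart.

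**Figure D1:**
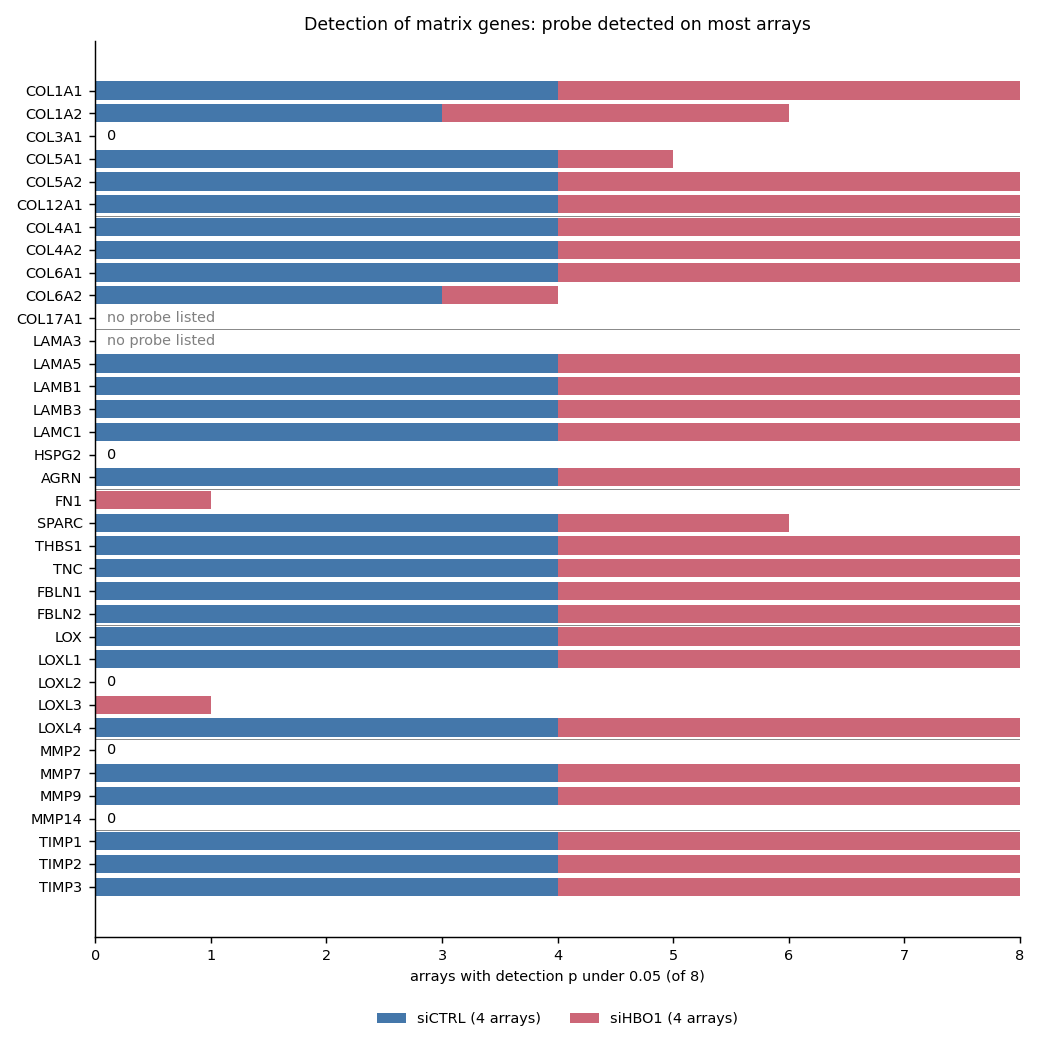
The horizontal bars count the arrays, of 8, on which each matrix gene was detected, with siCTRL arrays in blue and siHBO1 arrays in red, for the probe detected on most arrays. Bars reach 8 for 23 genes, COL3A1, HSPG2, LOXL2, MMP2 and MMP14 stand at 0, and COL17A1 and LAMA3 have no probe listed.

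No matrix gene passed the test between siHBO1 and siCTRL. Of 27 genes tested, 0 had a limma adjusted p under 0.05 over all 17297 genes, where 0.0347% of all genes did. With the replicate number as a block, 0 of 27 passed as well, against 0.335% of all genes. At an unadjusted p under 0.05 there were 2 members, LOX and MMP7, which is 7.41% of those tested against 3.79% of all genes. With the block there were 5, adding COL12A1, SPARC and LOXL4, or 18.5% against 7.60% of all genes. A fit that gave each array a weight by its noise was the 1 alternative in which a member passed, and that member was LOX (adjusted p = 0.0323).

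The members did not lean to one side. Their log2 fold changes, siHBO1 minus siCTRL, were positive for 13 and negative for 14, with a median of -0.03 beside -0.01 over all genes tested. They ran from -0.28 for SPARC to 0.70 for LOX. LOX and COL12A1 exceeded 0.50 in size, which is 7.41% of the members against 1.1% of all genes. For 25 of the 27 the 95% confidence interval lay within a 2-fold change in either direction (a log2 value of 1), and the exceptions were LOX (0.38 to 1.02) and COL12A1 (-0.29 to 1.38). Over all genes tested, 16682 of 17297 had an interval within these limits. By the brightest tested probe of each gene, LOX, MMP7 and COL12A1 were higher in siHBO1 in all 4 numbered pairs. FBLN2, LOXL4 and COL6A1 were lower in all 4. These 6 are 22.2% of the members, where 15.6% of all genes went one way in every pair.

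**Figure D2:**
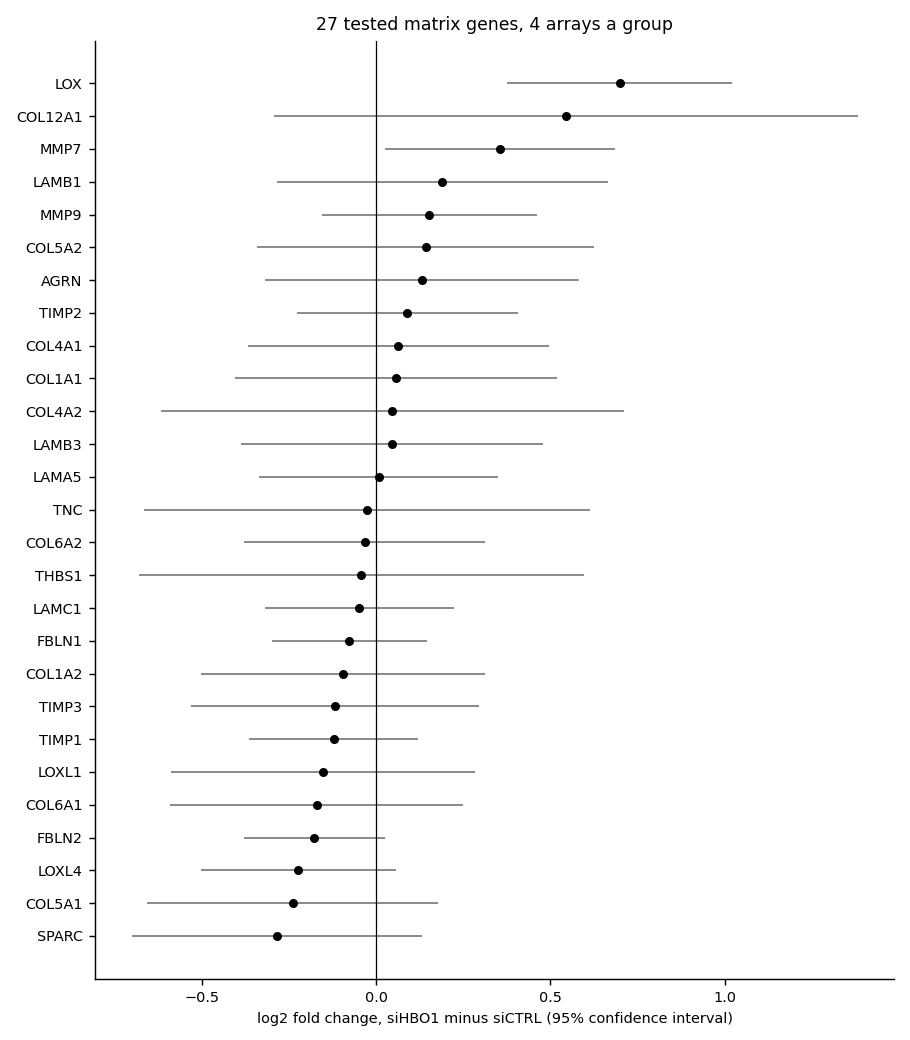
Points give the log2 fold change of each of the 27 tested matrix genes, siHBO1 minus siCTRL, and lines its 95% confidence interval from limma with 4 arrays a group. The intervals of LOX and MMP7 lie above 0 and those of the other 25 genes cross 0.

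The lysyl oxidases oxidise lysines of collagen and elastin so that the chains crosslink, and LOX is the founding member of the family. Its probe ILMN_1695880 had normalized log2 intensities of 7.74, 7.21, 7.30 and 7.44 on siCTRL arrays 1 to 4. On siHBO1 arrays 1 to 4 it stood at 8.30, 8.24, 7.92 and 8.04. Every siHBO1 array was above every siCTRL array, which held for LOX alone among the members (3.70% of them, against 1.35% of all genes). By the brightest tested probe of each gene, groups that did not overlap in either direction made up 2.82% of all genes. Among the members this was again LOX alone, and a second FBLN2 probe also had groups apart, as given below. In the deposited intensities, before any normalization, LOX stood at 345, 404, 417 and 438 in siCTRL and at 471, 516, 482 and 556 in siHBO1, so those values did not overlap either. The difference of 0.70 (SE 0.14, n = 4 each, 1.62-fold) had an unadjusted limma p of 0.000798, which ranked 51 among the 17297 genes. Its adjusted p was 0.264, and 0.0756 with the replicate block.

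LOX was detected on all 8 arrays but was dim, so the size of its difference moved with the treatment of background. Without background correction it was 0.34, and with the larger background offset 0.60. It was 0.73 without siHBO1 replicate 4, the array on which KAT7 was not lower (limma adjusted p = 0.559). Leaving out siHBO1 replicate 1, 2 or 3 instead gave LOX differences of 0.64, 0.66 and 0.76. Without both replicate 1 arrays it was 0.75 (limma adjusted p = 0.235 with the block and 0.0786 without it). The pair differences of LOX were 0.56, 1.03, 0.61 and 0.60.

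The relatives of LOX gave other values. LOXL4 had log2 intensities of 7.98, 8.05, 8.16 and 8.10 in siCTRL and of 7.53, 7.91, 8.04 and 7.91 in siHBO1. Its groups overlapped because siHBO1 replicate 3 lay above siCTRL replicate 1, and the lowest array was siHBO1 replicate 1. The difference for LOXL4 was -0.22 (SE 0.12, adjusted p = 1.00 by limma), and it was -0.12 without siHBO1 replicate 1. LOXL1, an oxidase tied to elastic fibres, stood at -0.15 with pair differences of both signs, from -0.70 to 0.30, and was 0.03 without both replicate 4 arrays. LOXL2 was detected on no array, and the LOXL3 probe on 1, siHBO1 replicate 3.

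Stretches of DNA are shown for the 3 members that were higher in every pair, each with the 250 bases before the outermost annotated start (RefSeq, GRCh38.p14, read on the strand of the gene), and the stretch that COL4A1 and COL4A2 share. Capitals mark matches, on either strand. The TATA box was searched as TATAAA, the GC box as GGGCGG and the CCAAT box as CCAAT. The AP-1 site was searched as TGANTCA, where N is any base, and the core of interferon response elements as GAAANNGAA. LOX lies on chromosome 5, minus strand (chr5:122078260-122078509), and this is 1 of 3 windows listed for it. COL12A1 lies on chromosome 6, minus strand (chr6:75206054-75206303), and MMP7 on chromosome 11, minus strand (chr11:102530748-102530997). COL4A1 and COL4A2 are transcribed away from each other on chromosome 13, and 126 bases part their first bases (chr13:110307158-110307283, plus strand, the strand of COL4A2).
LOX: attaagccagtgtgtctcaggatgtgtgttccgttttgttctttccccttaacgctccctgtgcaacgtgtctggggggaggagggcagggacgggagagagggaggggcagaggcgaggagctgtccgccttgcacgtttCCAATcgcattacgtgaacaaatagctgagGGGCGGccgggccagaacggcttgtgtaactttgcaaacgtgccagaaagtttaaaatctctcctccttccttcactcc
COL12A1: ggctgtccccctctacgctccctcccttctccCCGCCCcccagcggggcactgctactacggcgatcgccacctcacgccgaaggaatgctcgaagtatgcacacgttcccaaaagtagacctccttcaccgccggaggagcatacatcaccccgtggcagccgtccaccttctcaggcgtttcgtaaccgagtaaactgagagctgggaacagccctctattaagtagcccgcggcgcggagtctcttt
MMP7: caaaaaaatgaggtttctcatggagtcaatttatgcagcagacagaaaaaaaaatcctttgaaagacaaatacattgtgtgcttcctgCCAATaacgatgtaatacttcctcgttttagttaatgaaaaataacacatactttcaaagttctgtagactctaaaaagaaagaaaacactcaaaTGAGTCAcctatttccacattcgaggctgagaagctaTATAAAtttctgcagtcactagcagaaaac
COL4A1-COL4A2: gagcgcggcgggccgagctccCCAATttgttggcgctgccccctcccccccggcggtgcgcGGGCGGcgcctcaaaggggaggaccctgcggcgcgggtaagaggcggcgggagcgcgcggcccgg

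The LOX window held a CCAAT box and a GC box, and the COL12A1 window a GC box on the other strand. The MMP7 window held a TATA box, an AP-1 site and a CCAAT box. The GAAANNGAA core was in none of these 4 stretches. Over all 35116 windows of 250 bases in the RefSeq table, 10.7% held the TATA box, 42.6% the GC box, 32.0% the CCAAT box, 6.6% the AP-1 site and 6.9% the GAAANNGAA core. The COL4A1-COL4A2 stretch, which is shorter than those windows, held a CCAAT box and a GC box. A match is a match of letters only, and no binding was measured here.

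Among collagens of fibrils, COL12A1, a collagen that sits on the surface of fibrils, differed most. Its log2 intensities were 10.40, 9.62, 9.04 and 9.49 on siCTRL arrays 1 to 4 and 11.20, 9.73, 9.70 and 10.10 on siHBO1 arrays 1 to 4. The groups overlapped because siCTRL replicate 1 lay above 3 of the siHBO1 arrays, while each siHBO1 array lay above the siCTRL array of its own number. The difference of COL12A1 was 0.54 (SE 0.37, n = 4 each, limma adjusted p = 1.00). Within pairs it was 0.80, 0.11, 0.66 and 0.61, and the blocked fit gave an SE of 0.13 with adjusted p = 0.300. A second, dimmer COL12A1 probe gave 0.44. On it replicate 1 was lower in siHBO1, at 6.60 against 6.97 in siCTRL, while replicates 2 to 4 were higher in siHBO1. Both replicate 1 values lay within the range of the other arrays, 6.46 to 7.91. On the brighter probe, without siHBO1 replicate 1, its highest array, the COL12A1 difference was 0.21, and without siCTRL replicate 1 it was 0.81.

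The chains of collagens I and V, fibril formers, gave smaller differences, and COL1A1, COL1A2 and COL5A1 were dim. COL1A1 was detected on all 8 arrays and stood at 0.06 (95% confidence interval -0.40 to 0.52). COL1A2, whose product pairs with that of COL1A1, was detected on 3 arrays of each group by its brighter probe and stood at -0.09. A second COL1A2 probe was detected on 4 siCTRL and 2 siHBO1 arrays and gave -0.16. COL5A2 stood at 0.14. Leaving out siCTRL replicate 1 gave 0.25 for both COL1A1 and COL5A2. COL1A1 was -0.11 without siCTRL replicate 3, COL5A2 was -0.06 without siHBO1 replicate 1, and COL1A2 was 0.07 without both replicate 1 arrays. COL5A1 was detected on 4 siCTRL arrays but on 1 siHBO1 array. Its log2 intensities were 7.12, 6.57, 6.57 and 6.63 in siCTRL and 6.23, 6.47, 6.29 and 6.93 in siHBO1. The COL5A1 groups overlapped, with siHBO1 replicate 4 above 3 siCTRL arrays, and the difference was -0.24 (SE 0.19, adjusted p = 1.00 by limma). It was -0.03 without both replicate 1 arrays.

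The network-forming collagens gave no difference beyond the spread. COL4A1 and COL4A2 encode the chains of the common type IV collagen and lie head to head, as the shared stretch above shows. COL4A1 stood at 0.06 (95% confidence interval -0.37 to 0.49) and COL4A2 at 0.05 (-0.62 to 0.71). Their pair differences had the same sign in each pair, at 0.27, -0.05, 0.19 and -0.15 for COL4A1 and at 0.63, -0.20, 0.25 and -0.49 for COL4A2. Without siHBO1 replicate 1 COL4A1 was -0.11 and COL4A2 -0.24, and without siHBO1 replicate 4 they were 0.14 and 0.29. COL6A1, a chain of beaded-filament collagen VI, had log2 intensities of 7.56, 7.08, 7.56 and 7.11 in siCTRL and 7.50, 6.85, 7.35 and 6.93 in siHBO1. Each siHBO1 array of COL6A1 lay below the siCTRL array of its number while the groups overlapped, and the difference was -0.17 (SE 0.19, adjusted p = 1.00 by limma).

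COL6A2, a second chain of that collagen, was read by 3 probes, and 2 of them were detected on no array. The third was detected on 3 siCTRL arrays and 1 siHBO1 array. Its log2 intensities were 6.46, 6.83, 6.59 and 6.22 in siCTRL and 6.73, 6.29, 6.39 and 6.57 in siHBO1. These values overlapped fully, with a difference of -0.03 (SE 0.15), although the number of detected arrays differed. Without both replicate 2 arrays the COL6A2 difference was 0.14.

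Every laminin gene among the 36 that had a probe was detected, and none passed the test. LAMA1, a laminin gene outside the 36, was detected on 4 arrays of each group and is given below. LAMA5, LAMB1 and LAMC1 encode the alpha 5, beta 1 and gamma 1 chains, which together form laminin-511 of epithelial basement membranes, and all 3 were detected on every array. LAMA5 stood at 0.01 (95% confidence interval -0.34 to 0.35), LAMC1 at -0.05 (-0.32 to 0.22) and LAMB1 at 0.19 (-0.28 to 0.66). LAMB3, the beta chain of laminin-332, which anchors keratinocytes, stood at 0.04, and 2 other LAMB3 probes were detected on no array. AGRN, the gene of agrin, stood at 0.13 (-0.32 to 0.58), while the perlecan probe was not detected. Without siHBO1 replicate 1, LAMB1 was 0.02, LAMB3 -0.14 and AGRN -0.05, and without siCTRL replicate 1 they were 0.31, 0.11 and 0.24. LAMA5 ran from -0.14 to 0.14 over the alternatives, and LAMC1 from -0.13 to 0.01.

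All 5 glycoprotein genes tested had log2 fold changes below 0 on their brightest tested probe, from -0.28 to -0.03, and none passed the test. Of all 17297 genes tested, 9029 were below 0. THBS1 and TNC changed sign with single arrays. Without siCTRL replicate 1 they were 0.16 and 0.21, and without siHBO1 replicate 1 they were -0.31 and -0.26. SPARC, FBLN1 and FBLN2 stayed below 0 in every alternative run. These runs followed 1 probe a gene, and other FBLN1 probes stood on both sides of 0, as given below. SPARC, which binds collagen, was detected on 4 siCTRL arrays and 2 siHBO1 arrays. Its log2 intensities were 7.09, 7.18, 6.79 and 6.92 in siCTRL and 7.16, 6.87, 6.33 and 6.49 in siHBO1. The SPARC groups overlapped, siHBO1 replicate 1 lying between the 2 highest siCTRL arrays, and the difference was -0.28 (SE 0.19, limma adjusted p = 1.00, and 0.616 with the block).

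FBLN2, a fibulin of basement membranes and elastic fibres, had log2 intensities of 10.29, 10.15, 10.32 and 10.25 in siCTRL and 10.02, 10.04, 10.08 and 10.15 in siHBO1. The FBLN2 groups met at 10.15, since siHBO1 replicate 4 and siCTRL replicate 2 had nearly the same value, and the other 3 siHBO1 arrays lay below all siCTRL arrays. The difference was -0.18 (SE 0.09, limma adjusted p = 1.00), and a second kept FBLN2 probe gave -0.28. On that second probe the groups did not overlap, at 9.785 to 10.02 in siCTRL and 9.53 to 9.73 in siHBO1. Its unadjusted limma p was 0.0260, and it did not pass after adjustment over all kept probes. FBLN1, the relative of FBLN2, stood at -0.08, and its 4 kept probes ran from -0.24 to 0.14. THBS1 and TNC, the genes of thrombospondin-1 and tenascin-C, stood at -0.04 and -0.03 with wide intervals of -0.68 to 0.60 and -0.67 to 0.61. The second TNC probe gave 0.10. In all, 8 tested members had several kept probes, which shared 1 sign for 6 genes and not for FBLN1 and TNC.

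**Figure D3:**
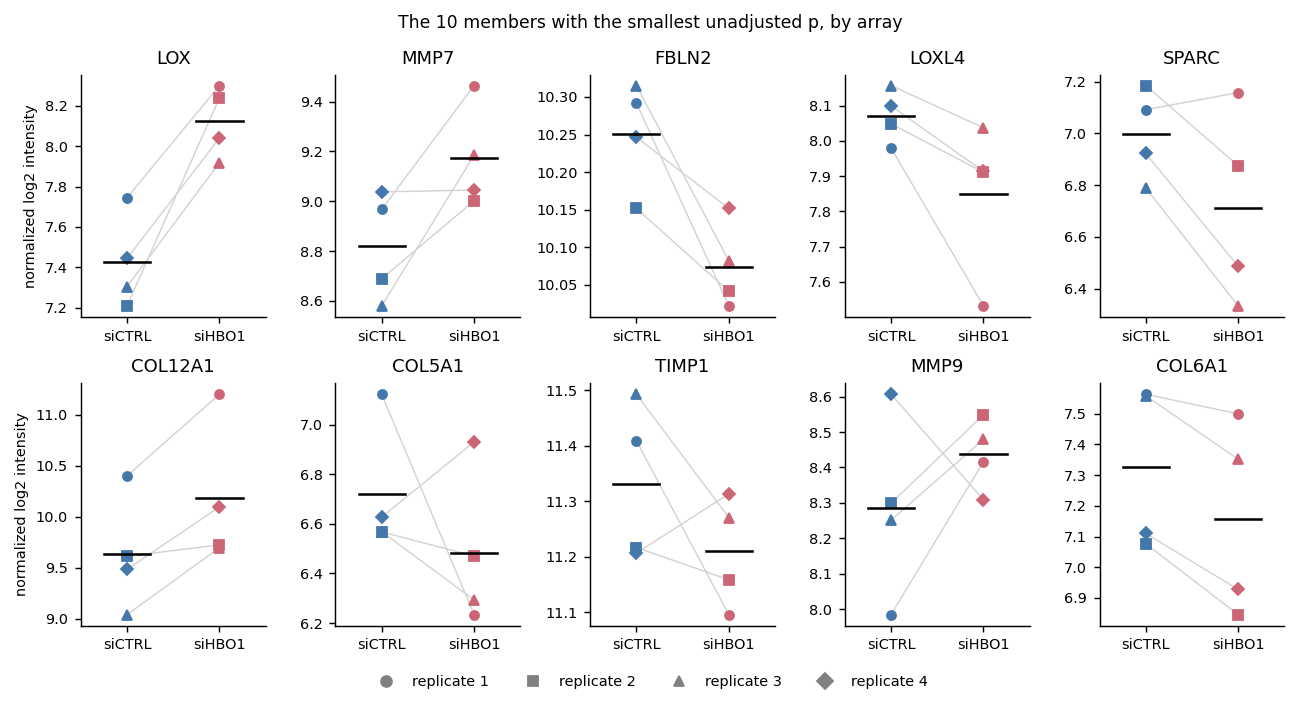
Each panel shows normalized log2 intensity on the 4 siCTRL arrays (blue) and the 4 siHBO1 arrays (red) for 1 of the 10 members with the smallest unadjusted p, with marker shapes for the replicate number, grey lines joining arrays of 1 number and black bars for group means. The siHBO1 values of LOX, 7.92 to 8.30, all lie above its siCTRL values of 7.21 to 7.74, and the groups of the other 9 genes overlap.

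Of the metalloproteinases, MMP7 and MMP9 were detected on every array and MMP2 and MMP14 on none. MMP7 encodes matrilysin, a secreted protease that epithelial cells themselves make. Its log2 intensities were 8.97, 8.69, 8.58 and 9.04 in siCTRL and 9.46, 9.00, 9.19 and 9.05 in siHBO1. The groups of MMP7 overlapped at siCTRL replicate 4, which stood above siHBO1 replicate 2. The difference of MMP7 was 0.36 (SE 0.15, n = 4 each, 1.28-fold), with an unadjusted limma p of 0.0375. After adjustment the p was 1.00, and 0.496 in the blocked fit. The pair differences of MMP7 were 0.50, 0.31, 0.61 and 0.01, and without the last pair the MMP7 difference was 0.47. KAT7 was not lower in siHBO1 in that pair, and a link was not tested. The second MMP7 probe gave 0.27, and the last pair was not its closest. On that probe replicate 4 stood at 8.66 in siCTRL and 8.86 in siHBO1, and replicate 3 at 8.65 and 8.72.

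MMP9, a gelatinase, had log2 intensities of 7.98, 8.30, 8.25 and 8.61 in siCTRL and 8.42, 8.55, 8.48 and 8.31 in siHBO1. Its highest array was a siCTRL array, so the MMP9 groups overlapped, and the difference was 0.15 (SE 0.14, adjusted p = 1.00 by limma). It was 0.05 without siCTRL replicate 1 and 0.30 without both replicate 4 arrays. The inhibitor gene TIMP1 stood at 11.41, 11.22, 11.49 and 11.21 in siCTRL and at 11.10, 11.16, 11.27 and 11.31 in siHBO1. The TIMP1 groups overlapped and the difference was -0.12 (SE 0.11, adjusted p = 1.00 by limma). TIMP2 stood at 0.09, with 0.17 on its second probe, and TIMP3, which binds to the matrix itself, at -0.12. TIMP2 was -0.05 without both replicate 3 arrays, and TIMP3 was 0.02 without siHBO1 replicate 4.

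The spread between arrays was larger than most of these differences, and for many members it followed replicate 1. Both replicate 1 arrays lay above the other 6 arrays for 11 of the 27 members (40.7%) and below them for 0, where 16.2% of all genes lay above and 22.7% below. These 11 were COL1A1, COL5A2, COL12A1, COL4A1, COL4A2, LAMB1, LAMB3, LAMC1, AGRN, THBS1 and TNC. THBS1 stood at 12.25 and 12.43 on the replicate 1 arrays and at 11.33 to 11.52 on the others. TNC stood at 12.59 and 12.63 against 11.57 to 11.89, and COL12A1, on its brighter probe only, at 10.40 and 11.20 against 9.04 to 10.10. The mean gap was 0.94 for THBS1, 0.93 for TNC and 1.19 for COL12A1, each larger than the difference between siHBO1 and siCTRL for the same gene. The replicate 1 arrays also had the lowest median intensities of all, 224 and 240 against 280 to 324 on the others. The part of either in the other was not tested. Without both replicate 1 arrays the median difference of the members was -0.06 and 0 passed, with or without the block (3 members at an unadjusted limma p under 0.05 in each fit).

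**Figure D4:**
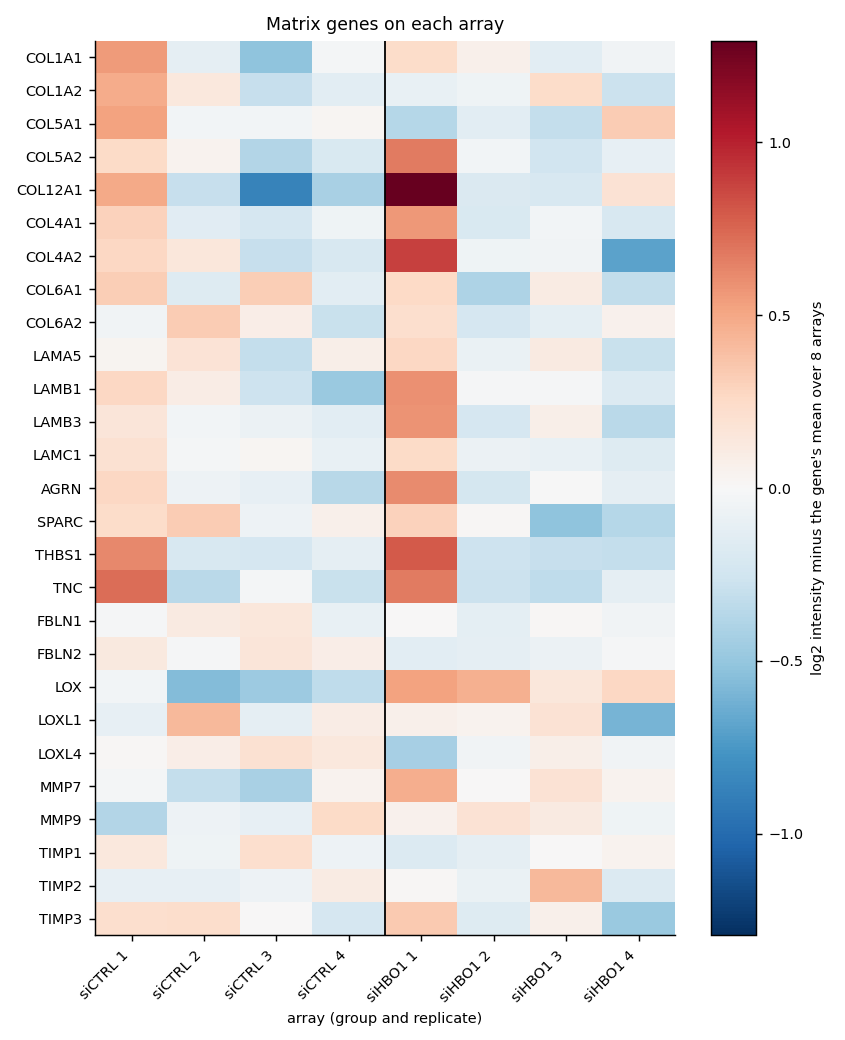
Colours give the log2 intensity of each tested matrix gene on each array minus the mean of that gene over all 8 arrays, with red above and blue below, and a black line parting siCTRL from siHBO1 arrays. The columns of both replicate 1 arrays are red for most collagens, laminins, THBS1 and TNC, and LOX is the 1 row in which the 4 siHBO1 values lie above the 4 siCTRL values.

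Genes that work beside the members were read from further lists, and none of their members passed the main or the blocked test. Of 27 genes of collagen folding, modification and secretion, 21 were tested, with a median of -0.05. CRTAP, which acts in collagen prolyl 3-hydroxylation, stood at -0.22 and the hydroxylase gene P3H2 at -0.18. Of 30 other collagen genes 12 were tested, with a median of 0.06, COL8A2 at 0.16 and COL9A1 at 0.26. Of 13 other laminin and basement membrane genes 8 were tested (median 0.06). At an unadjusted limma p under 0.05 there were 2 in this list, 1 in the elastic fibre list and 0 in each of the other 4 lists, where 3.79% of all genes had such a p. LAMA1, the laminin alpha 1 chain, stood at 0.71 (SE 0.28, adjusted p = 1.00, and 0.135 with the block), and the calcium-binding matrix gene SMOC2 at 0.52 (SE 0.17, adjusted p = 0.900).

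Among 26 other metalloproteinases, ADAM proteases and inhibitors, 12 were tested (median -0.03), with MMP11 at -0.27 and ADAMTS1 at 0.37. Of 29 elastic fibre and matricellular genes 21 were tested (median -0.06), with the basement membrane gene VWA1 at -0.35 (SE 0.11, limma adjusted p = 0.835) and MATN2 at -0.18. Of 14 genes of TGF-beta signalling, a known inducer of matrix genes, 11 were tested (median -0.02), with SMAD2 at -0.37 and TGFB2 at -0.17.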

How the data were processed

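Total RNA of OVCAR-3 cells was read on 8 single-colour Illumina arrays with 47312 probes. The deposited intensity values are linear and not normalized, per the file headers, and each comes with a detection p-value, in steps of 1 in 770, deposited by the authors. The authors' processed values lie on a log2 or similar scale that is not stated, and they rise with that array's intensities. Their column medians were 6.57 for replicates 1 to 3 and 6.63 for replicate 4. GenomeStudio and lumi are named per the submitters' processing notes, with versions and roles not given in the sources used here. No slide or scan date was used here.

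Intensities were corrected with nec of limma 3.58.1 (normexp from detection p, offset 16), then quantile-normalized as log2 values (R 4.3.3). Probes with detection p under 0.05 on at least 4 of 8 arrays were kept (21377), and the brightest kept probe on average stood for a gene, leaving 17297 genes or unnamed probes. The annotation gave 1 symbol for 30108 probes, several for 8 and none for 17196. Groups were compared over all of them with lmFit and eBayes of limma, 2-sided, with Benjamini-Hochberg adjustment at 0.05.

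Replicate numbers come from the labels. Across genes, the deviations of arrays of 1 number from their group means had r = 0.783, 0.324, 0.397 and 0.217, all above 0.1, and numbers were treated as pairs. For replicates 2 to 4, another number correlated more highly (r up to 0.404, 0.404 and 0.383). Replicate 1 stood apart in both groups, so centring within groups moves arrays 2 to 4 of both groups the same way. These r values thus cannot show that numbers 2 to 4 are pairs. For those numbers the pair differences and the blocked fits rest on the labels. Array numbers limit the precision. The members and lists, and the rule for values per array (the 10 smallest unadjusted p, and genes detected on at least 3 arrays of 1 group and at most 1 of the other), were chosen with earlier results of these data known.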

Additional observations from a re-analysis of the deposited data

Results flagged for a closer look

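Of 54 groups of 4 arrays (27 members, 2 groups each), 3 held an array far from the other 3, and chance gives about 1 in 20 groups. THBS1 stood at 12.25 on siCTRL replicate 1, against 11.42 to 11.52 on the other siCTRL arrays. It stood at 12.43 on siHBO1 replicate 1, against 11.33 to 11.36 on the other siHBO1 arrays. COL5A1 stood at 7.12 on siCTRL replicate 1, against 6.57 to 6.63 on the other siCTRL arrays, while on siHBO1 replicate 1 it was the lowest of its group at 6.23.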

How the results depend on the processing

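The number of members past the threshold was 0 in 23 of 24 alternatives and 1, LOX, with array weights. The count over all genes, 6 in the limma fit, was 58 with the replicate block, 16 without background correction, 11 with background offset 50 and 68 with array weights. It was 0 with median scaling, with no normalization between arrays, with the authors' processed values and with each kept probe on its own (169 to 792 at an unadjusted p under 0.05). Leaving out 1 array gave 0 to 5, and leaving out both arrays of 1 number with the block gave 0 to 31, with the highest count without replicate 4 and 0 without replicate 2 or 3. Added after seeing the data, leaving out replicate 1 or replicate 4 without a block gave 17 and 0 (1231 and 550 at an unadjusted limma p under 0.05). The cause was not tested. The block changed no call among the members. Their median stayed between -0.11 and 0.05, and 12 of 27, each followed on 1 probe, had 1 sign in every alternative run. LOX ran from 0.34 to 0.81, and its adjusted p from 0.0323 to 1.00. KAT7 stayed below 0 in all 24 and passed without both replicate 4 arrays, with the block (-1.01, adjusted p = 0.0429). Dim probes, COL1A2, COL5A1, COL6A2 and SPARC among them, had least signal over background.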
